A study of Mus musculus with 8 samples.

Results

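The 4396 sites described here were called as PU.1 binding sites in all 3 libraries of a restoration course, at days 4, 8 and 12, and in none of the other 4 libraries of the study. They were chosen from the calls alone: the summits of the 7 lists were merged whenever neighbouring summits lay within 100 bp, and a merged site was kept when exactly the lists of days 4, 8 and 12 had a summit in it. Of 246675 merged sites in all, 1.78% had this pattern. Of the 16870 merged sites called at days 4, 8 and 12 together, whatever the other lists held, they made up 26.1%. Because the calls and their scores chose the sites, both are given as descriptions, while the position of a site relative to genes and its sequence were not used in the choice.

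The study mapped PU.1 by ChIP-seq, the sequencing of immunoprecipitated chromatin, in AML246, a mouse acute myeloid leukaemia line. Each deposited list held 1 summit per called peak with the peak's score, the −log10 q-value of the peak caller. From what is known of the study, a hairpin that doxycycline (Dox) switches off silences PU.1 in these cells, so that Dox restores it; the labels give no genotype. All cells were grown in IL-3 medium with 10% serum, Dox was given at 0.1 ug/mL from day 0 until its removal on day 12, and cells sorted as viable went into the immunoprecipitation. The restoration libraries were Day 0, untreated, and Days 4, 8 and 12, after that many days of Dox. The other 3 libraries were titled as a knockdown course, Day 12- 4, Day 12- 8 and Day 12- 12, and are called by their titles. Their treatment labels differed from the titles: Day 12- 4 carried the label of 12 days on Dox and a Cd11b-high sort, Day 12- 8 that of 4 days off Dox, and Day 12- 12 that of 8 days off Dox. A further sample, with the label of 12 days off Dox, is not analysed here. By the treatment labels, then, the sites were called in none of the untreated cells, the sorted Cd11b-high cells still on Dox and the cells 4 and 8 days off Dox. Another 579 sites were called at days 4, 8 and 12 and in Day 12- 4 alone of the others, and are not included.

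With 1 library for each time point there was no replicate error against which a difference could be judged, and the text gives no p-values. The lists held 8043 (Day 0), 57424 (Day 4), 33962 (Day 8), 86271 (Day 12), 9868 (Day 12- 4), 21377 (Day 12- 8) and 148415 (Day 12- 12) summits. Depth, which sets how many peaks are called, was not given in the sources used here. A missing call therefore does not show absence of binding, and scores of different lists are not compared as levels. Where 3 scores of a site are given together, they are in the order of days 4, 8 and 12. The files hold summits and no RNA values, so the cells' identity could not be checked against expression of marker genes.

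PU.1, encoded by Spi1, is an ETS-family transcription factor that binds purine-rich DNA with a GGAA core. It is required for macrophages, granulocytes and B cells, and in macrophages most of its binding lies away from gene starts, at enhancers that it opens together with C/EBP, AP-1 and other factors. Its loss or reduced dose blocks myeloid differentiation and can contribute to acute myeloid leukaemia.

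The following 6 stretches of 100 bases are examples from gene promoters and are not typical of the set. Only 67 of the 4396 sites had all 3 summits in a promoter window, and sequence away from promoters was not searched. The window is that of RefSeq, from 250 bases before to 50 bases after the start. Of the 75 such windows 11 held the PU.1-type motif GAGGAAGT on either strand (its reverse complement reads ACTTCCTC), and the 6 are from these. Capitals mark that motif. Sequences are from RefSeq on GRCm38.p6 (the mm10 coordinate system), 5′ to 3′ on the gene's strand, and all lie before the start.
Aim2: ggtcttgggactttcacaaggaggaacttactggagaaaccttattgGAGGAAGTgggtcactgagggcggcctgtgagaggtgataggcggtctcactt
Etv3l: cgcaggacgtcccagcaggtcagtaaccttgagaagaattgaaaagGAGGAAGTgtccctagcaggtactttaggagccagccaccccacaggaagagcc
Samd8: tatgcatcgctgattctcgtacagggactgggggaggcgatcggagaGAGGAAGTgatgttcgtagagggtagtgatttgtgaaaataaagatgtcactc
Gpr55: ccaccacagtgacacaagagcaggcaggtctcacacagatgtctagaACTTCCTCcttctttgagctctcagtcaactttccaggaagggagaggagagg
Itgb2l: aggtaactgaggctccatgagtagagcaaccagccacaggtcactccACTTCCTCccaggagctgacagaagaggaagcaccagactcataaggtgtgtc
Slc49a4: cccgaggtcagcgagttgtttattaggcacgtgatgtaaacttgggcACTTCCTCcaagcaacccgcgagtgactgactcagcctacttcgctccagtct

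The stretches lay at chr1:173420444-173420543 (plus strand) for Aim2, which encodes the cytosolic DNA sensor of an inflammasome, chr3:87549913-87550012 (plus strand) for Etv3l, an ETS-family gene, chr14:21751432-21751531 (plus strand) for Samd8, chr1:85961108-85961207 (minus strand) for Gpr55, a G-protein-coupled receptor, chr16:96443619-96443718 (minus strand) for Itgb2l, an integrin subunit gene expressed in maturing neutrophils, and chr16:35769505-35769604 (minus strand) for Slc49a4. The centre of the motif lay 51.5, 18.5, 22.5, 14.8, 19.5 and 48.5 bp from the mean of the 3 summits in that order. The Aim2 site scored 84.2, 19.5 and 12.1 in the lists of days 4, 8 and 12, and the Samd8 site 112, 90.8 and 15.5. The Gpr55 site was weaker in all 3 lists, at 26.2, 11.9 and 5.51. Slc49a4 is the exception in this set: its site scored 35.1 and 27.1 at days 4 and 8 and 131 at day 12, and it was the sole promoter with the motif whose site ranked highest at day 12.

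Most promoters with a restoration-only site did not hold that exact motif. Clec5a, encoding a myeloid C-type lectin receptor, and Btk, encoding a tyrosine kinase of myeloid and B-lymphoid cells, are shown as examples in which the GGAA core (TTCC on the other strand), in capitals, stood alone or in runs near the summits.
Clec5a: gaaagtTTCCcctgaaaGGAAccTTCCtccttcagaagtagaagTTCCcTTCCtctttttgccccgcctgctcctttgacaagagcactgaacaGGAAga
Btk: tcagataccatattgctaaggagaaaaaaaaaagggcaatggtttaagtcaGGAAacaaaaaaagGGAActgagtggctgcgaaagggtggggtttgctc

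The stretches lay at chr6:40585810-40585909 (minus strand) and chrX:134583141-134583240 (minus strand). The Clec5a site scored 103, 42.1 and 16.3 in the lists of days 4, 8 and 12, and the Btk site 127, 20.98 and 22.6. The nearest GGAA core lay 0.5 bp and 16.5 bp from the mean summit.

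Another kind of promoter is shown by 4 genes of general cell function, again with GGAA and TTCC in capitals. Derl2 encodes a protein of endoplasmic-reticulum quality control, Uqcr11 a subunit of respiratory complex III, Mdh2 the mitochondrial malate dehydrogenase and Rps15a a protein of the small ribosomal subunit.
Derl2: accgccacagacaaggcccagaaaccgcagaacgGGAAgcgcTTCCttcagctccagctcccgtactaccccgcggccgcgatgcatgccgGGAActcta
Uqcr11: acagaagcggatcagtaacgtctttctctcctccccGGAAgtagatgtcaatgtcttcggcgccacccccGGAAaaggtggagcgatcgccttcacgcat
Mdh2: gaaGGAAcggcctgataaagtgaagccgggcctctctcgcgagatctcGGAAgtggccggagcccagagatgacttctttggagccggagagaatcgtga
Rps15a: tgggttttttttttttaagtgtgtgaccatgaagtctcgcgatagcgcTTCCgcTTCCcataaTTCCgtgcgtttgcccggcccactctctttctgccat

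These stretches lay at chr11:71019842-71019941 (minus strand), chr10:80406822-80406921 (minus strand), chr5:135778425-135778524 (plus strand) and chr7:118116148-118116247 (minus strand). The Rps15a site scored 6.11, 7.33 and 105 in the lists of days 4, 8 and 12. For Uqcr11 the scores were 14.9, 6.83 and 120, for Mdh2 10.2, 15.3 and 203, and for Derl2 90.03, 63.7 and 398. All 4 sites ranked highest in the Day 12 list, between the 92.5th and the 98.9th percentile. The Mdh2 site lies in a promoter shared with Styxl1, which runs the other way.

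In all, 75 promoter windows of 68 genes held all 3 summits of a restoration-only site, from 67 sites, since windows of neighbouring starts overlap. GAGGAAGT, searched on both strands, was found in 11 of the 75 windows (14.7%, 95% interval 7.56 to 24.7) and in 3.13% of the 21263 windows of protein-coding genes. Promoters of sites called at days 4, 8 and 12 and again in Day 12- 12 held it in 8.06% of 310 windows (5.29 to 11.7), and promoters of sites called in all 7 libraries in 20% of 450 (16.4 to 24.0). The interval for the restoration-only promoters overlaps both, and it covers counting error alone. In 8 of the 11 promoters the motif lay within 30 bp of the mean summit, with a median of 19.5 bp. Besides those printed, they were Evi2b, Ltb4r1 and S100a4, with the motif after the start, and Bcl2a1d and Bcl2a1b. The last 2 are near-identical copies between which reads could be split, so their calls are uncertain. The Evi2b motif lay 0.167 bp from the mean summit. The core GGAA was in every one of the 75 windows and in 95.7% of all windows, so its presence says little in a window of this length.

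The Sp/KLF-type motif GGGCGG, typical of GC-rich promoters, was found in 40.0% of the restoration-only promoters (28.9 to 52.0), in 46.2% of all windows and in 81.3% of the promoters of sites called in all 7 libraries (77.4 to 84.8). The AP-1-type motif TGANTCA was found in 8 of the 75 windows (10.7%, 4.72 to 19.9) against 6.99% of all windows, and the C/EBP-type motif TTGCNNAA in 11 (14.7%, 7.56 to 24.7) against 10.2%. Both intervals include the share of all windows. The RUNX-type motif TGTGGT was found in 19 of the 75 (25.3%, 16.0 to 36.7) against 15.0% of all windows, which lies just below the interval. A match is a run of letters and does not show that a factor binds there.

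The promoters separated by the list in which their site ranked highest, a split chosen after the data were seen. The 32 windows, of 28 genes, whose site ranked highest at day 4 had a median GC content of 48.0% and held GAGGAAGT in 9 and GGGCGG in 6. The 41 windows, of 38 genes, whose site ranked highest at day 12 had a median GC content of 57.7%, close to the 56.3% of all windows. They held GAGGAAGT in 1 and GGGCGG in 24. Overlapping windows with the same site, such as those of Men1 and Ccdc77, were each counted. The genes on each side are of mixed function and were not compared by a gene list; those named are examples. On the day 4 side they included the immune genes Clec5a, Clec4a1, Clec4a3, Cd180, Lair1, Ltb4r1, Ccl6, Aim2 and Nlrp3, and also Psap (a lysosomal protein precursor), Samd8, Ccdc77, Mrtfa, Tmcc3, Dennd1b, Pi16, Hrh1 and Glrp1. On the day 12 side they included Rps15a, Uqcr11, Mdh2, Derl2, Ftl1 (ferritin light chain), Men1 (menin), Cnot4, Rnf10 and Ufl1, and also the leukocyte genes Coro1a, Entpd1, Siglece and Tnfsf13b. Nlrc4, encoding another inflammasome protein, and Itgb2l had their highest rank at day 8.

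Scores of the 4396 sites varied widely within each list. In the Day 4 list their median score was 40.5 (quartiles 19.5 and 71.3, highest 522), and their median rank was the 80.8th percentile of that list. In the Day 8 list the median was 15.1 (9.12 and 27.5, highest 255), at the 52.1st percentile. In the Day 12 list it was 11.6 (7.16 and 23.9, highest 398), at the 63.5th percentile. The sites thus ranked high among Day 4 calls, near the middle of Day 8 calls and somewhat above the middle of Day 12 calls. They made up 7.66% of the Day 4 list, 12.9% of the Day 8 list and 5.10% of the Day 12 list.

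**Figure D1:**
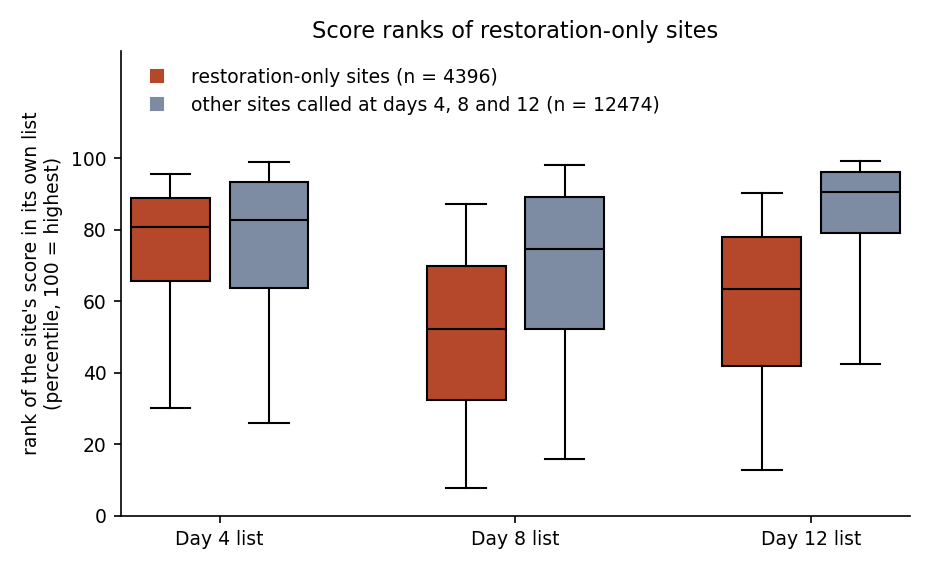
Rank of each site's score within its own list (percentile, 100 is the highest) for the 4396 restoration-only sites and the 12474 other sites called at days 4, 8 and 12. Boxes span the quartiles with the median as a line, and whiskers reach the 5th and 95th percentiles. The 2 sets lie close together in the Day 4 list, and the restoration-only sites lie lower in the Day 8 and Day 12 lists.

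The highest rank fell in the Day 4 list for 3102 sites (70.6%), in the Day 12 list for 1034 (23.5%) and in the Day 8 list for 260 (5.91%). Sites that were called again in Day 12- 12 as well (5938 sites) had median percentiles of 73.6, 57.5 and 85.4 at days 4, 8 and 12, so the difference in rank was largest in the Day 12 list. Across the restoration-only sites, ranks at days 4 and 8 had a Spearman correlation of 0.55, against 0.17 for days 4 and 12 and 0.22 for days 8 and 12. For the 12474 other sites called at all 3 days the values were 0.73, 0.22 and 0.51. These describe the lists over sites, which share libraries and are not replicates.

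Few of the sites were strong in every list. The lowest of a site's 3 percentiles was above 50 for 1660 sites, above 75 for 365 and above 90 for 17. When the 16870 sites called at all 3 days were divided into 5 equal groups by that lowest percentile, restoration-only sites made up 43.5% of the weakest group, then 38.2%, 28.5% and 16.5%, and 3.51% of the strongest. The 20 sites with the highest lowest percentile were led by a site within Camta2 (chr11:70680060-70680125), which scored 186, 200 and 299 at days 4, 8 and 12. Next came a site within Rbm19 (chr5:120165232-120165241; 304, 122 and 175), but a Day 12- 12 summit lay only 105 bp from it. Among the 20, Day 12- 12 summits lay as close to the sites nearest Lrrc32 and Arhgap22 (0.103 kb each), Kcng2 (0.112 kb), Foxk1 (0.12 kb) and Cux1 (0.125 kb). The rest of the 20 stood at least 0.305 kb from any summit of the other lists. Over all restoration-only sites, 9.92% had such a summit within 200 bp. A site within Primpol (chr8:46595760-46595793; 414, 108 and 126) stood 13.8 kb from any summit of the other lists. The site 24.5 kb from Syt14 (chr1:193060328-193060388) had the highest Day 4 score of all 4396, at 522, with 210 at day 8 and 95.6 at day 12, and its nearest other summit was 12.7 kb away. A site 1.31 kb from Cd69 (chr6:129276677-129276699), the gene of an early leukocyte activation antigen, scored 181, 137 and 79.9 and stood 38.6 kb from the nearest other summit.

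The 3 summits of a site lay close together. Every restoration-only site held exactly 3 summits, with a median span of 44 bp (quartiles 25 and 71, largest 188). The median distance between the summits of a site was 22 bp for days 4 and 8, 27 bp for days 8 and 12 and 28 bp for days 4 and 12. The merging distance bounds these values.

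How far the sites stood from calls of the other lists differed by list. The nearest Day 12- 12 summit was within 2 kb of 42.1% of the sites, with a median distance of 2.96 kb, in a list that is also the longest. Median distances were 23.9 kb to Day 12- 8, 37.9 kb to Day 12- 4 and 55.1 kb to Day 0, and within 2 kb there was a summit for 7.60%, 5.73% and 3.09%. The 6794 sites called at days 4 and 8 alone had a Day 12- 12 summit within 2 kb in 40.4% of cases. No summit of any of the 4 lists lay within 10 kb of 1019 sites (23.2%), and 163 sites had a summit at 101 to 120 bp, just beyond the merging distance. Those 163 sites had median scores of 33.8, 16.3 and 27.2 at days 4, 8 and 12. The 265 sites whose nearest other summit lay at 81 to 100 bp, and which the rule left out, had medians of 29.4, 16.3 and 31.3.

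**Figure D2:**
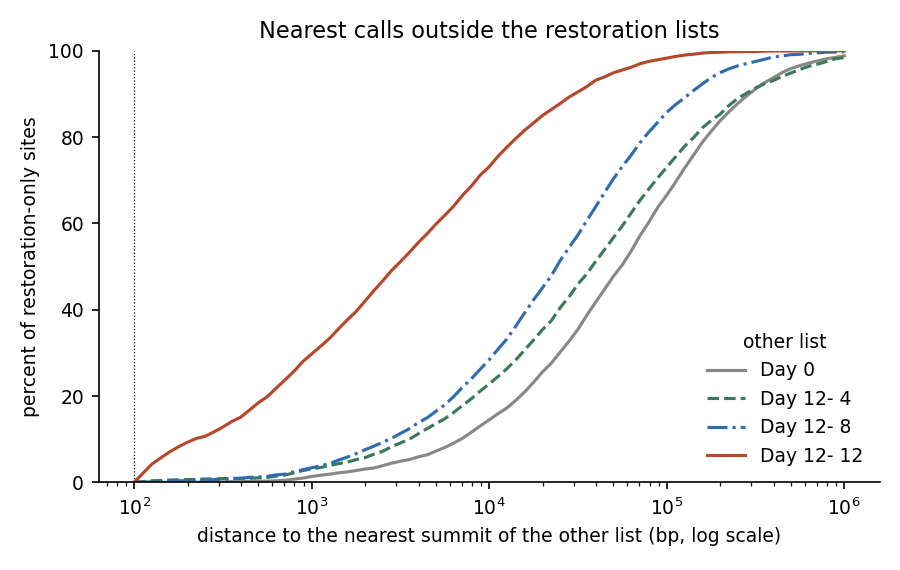
Cumulative percent of the 4396 restoration-only sites with a summit of each other list within the distance on the x axis (bp, log scale); the dotted line marks the 100 bp merging distance. The Day 12- 12 curve, from the longest list, lies far to the left of the other 3.

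Restoration-only sites were mostly away from genes' ends. Of the 4394 on chromosomes, 7.49% (95% interval 6.73 to 8.31) lay within 1 kb of an end (start or stop) of a protein-coding gene, and 55.9% (54.4 to 57.3) lay inside a gene, below the 62.9% of all merged sites and the 59.8% of sites also called in Day 12- 12. The gene table gave no exons, so sites inside genes were not divided into exonic and intronic. Of the 5930 placed sites that were also called in Day 12- 12, 15.8% (14.8 to 16.7) lay within 1 kb of a gene end, a difference of −8.26 percentage points (−9.47 to −7.04). For sites called in every library but Day 0 the share was 62.8% (60.0 to 65.5), and for sites called in all 7 libraries 75.1% (72.2 to 77.9). The sites called at days 4 and 8 alone were similar in this respect, at 7.28%, a difference of 0.208 points with an interval from −0.773 to 1.22. All merged sites gave 13.3%. Measured from annotated transcription starts, 4.91% of the restoration-only sites (4.28 to 5.61) lay within 1 kb, against 11.7% of those also called in Day 12- 12. Only 17492 of the 21887 protein-coding genes had a start in the table used, so sites at the other genes were measured to a more distant gene. A site 593 bp from an end of Cd28, for example, lay 163230 bp from the nearest listed start. The shares within 1 kb of a start can therefore be too low. Over 10 kb from any listed start lay 72.6% of the restoration-only sites, close to the 70.9% of all merged sites. These 2 shares can be too high.

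Read the other way, restoration-only sites made up 9.42% (8.47 to 10.4) of the sites called at all 3 days within 1 kb of a gene end, and 30.4% (29.7 to 31.2) of those farther away. The gap was there at every level of rank: across the 5 groups by lowest percentile, 5.08% to 8.67% of restoration-only sites and 14.7% to 16.6% of the sites also called in Day 12- 12 lay near gene ends.

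Within the restoration-only sites, position went with the list of highest rank. Of the 3100 placed sites with their highest rank at day 4, 5.10% (4.35 to 5.93) lay near a gene end, and of the 1034 with their highest rank at day 12, 15.3% (13.1 to 17.6). Within 1 kb of a listed start the shares were 3.47% and 9.92%. The sites also called in Day 12- 12 differed in the same direction, at 8.58% and 19.3% near gene ends, and 67.4% of them had their highest rank at day 12. The 2 sets thus differed in make-up by list. Among sites ranking highest at day 4, and among those ranking highest at day 12, the restoration-only share near gene ends was the lower, by less than over all sites. For those ranking highest at day 8 the shares were 5% of 260 (2.69 to 8.40) and 6.36% of 173 (3.22 to 11.1), with intervals that overlap widely.

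**Figure D3:**
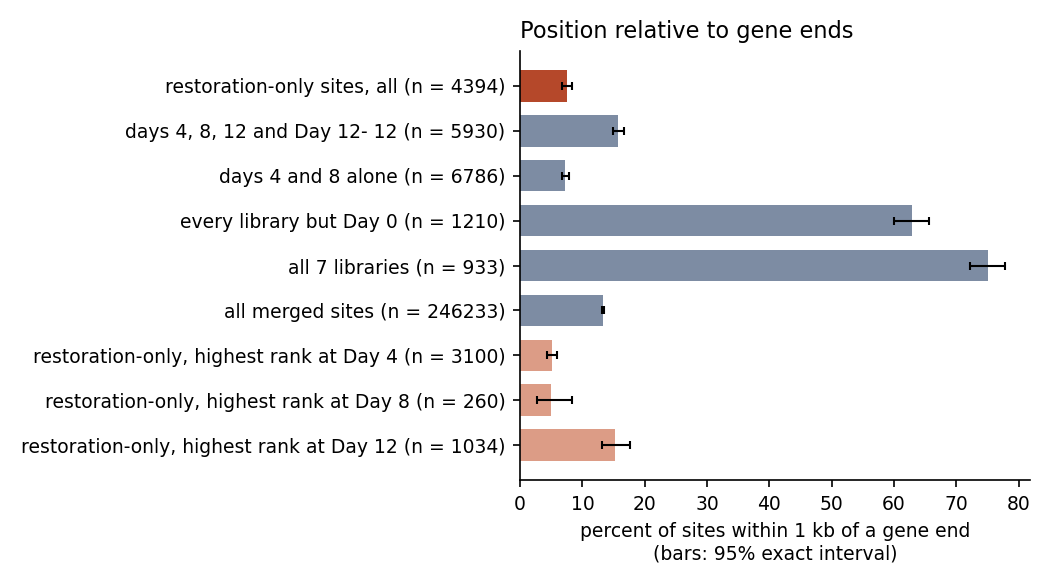
Percent of sites within 1 kb of a protein-coding gene's start or stop, with 95% exact intervals that cover counting error. Dark red is all restoration-only sites, light red the same sites by the list of their highest rank, and grey other call patterns; the red bars lie between 5% and 15.3%, and the sites called in all 7 libraries at 75.1%.

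Within 10 kb of 3167 of 21887 protein-coding genes (14.5%) lay at least 1 restoration-only site. Of these genes 2555 had 1 site and 160 (0.731%) had 3 or more. Long genes hold more sites: when genes were divided into 10 equal groups by length, 30.9% of the longest group and 2.33% of the shortest had a site, so each gene list is set beside the share in genes of the same length groups. The most sites, 6 each, were counted for Tg and Zdhhc14. Tg encodes thyroglobulin and contains the gene Sla, a Src-like adaptor of leukocytes, and 3 of the sites of Tg lie within Sla. Genes with 5 sites included Cux1 and Foxp1 (transcription factors), Hdac4 (a histone deacetylase), Laptm5 (a lysosomal membrane protein of blood cells), Asap1, Rabgap1l, Dennd1b, Gucy2c, Dgat2, Dapk2 and Rptor (the mTORC1 scaffold). Laptm5 and Dgat2 are short, at 23.3 kb and 29.1 kb, and the others of these genes range from 84.5 kb for Gucy2c to 597 kb for Foxp1.

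Genes of myeloid signalling had restoration-only sites in 19 of 30 cases (63.3%, 43.9 to 80.1), against 20.9% in genes of the same length. Sites also called in Day 12- 12 lay near 16 of the 30, against 21.1% of all genes of any length. No share by length was computed for those sites in any list. The genes of the signalling list are long, with a median of 53.1 kb against 17.2 kb over all genes. The list covers the kinases, lipid kinases and adaptors that pass on signals from Fc, integrin and cytokine receptors. Pik3cd, the leukocyte PI3-kinase catalytic subunit, had 4 sites inside the gene. The strongest at day 4 (chr4:149696825-149696871) scored 81.4, 43.2 and 49.6 at days 4, 8 and 12. Day 12- 12 summits lay 0.142 kb from that site and 0.397 to 0.751 kb from the others in Pik3cd. Prkcb, protein kinase C beta, had 4 sites as well, among them chr7:122347634-122347649 with 46.8, 27.2 and 86.7 and a Day 12- 8 summit 0.382 kb away. Lyn, a Src-family kinase, had 3, and the site at chr4:3730580-3730666 scored 90.2, 76.8 and 5.30. Of the 3 sites in Sla the strongest, chr15:66804637-66804697, scored 103, 46.3 and 18.7. Syk, the kinase that reads phosphorylated receptor tails, had 2 intragenic sites that scored 127, 29.8 and 15.1 and 162, 27.2 and 18.7. Day 12- 12 summits lay 0.426 kb and 4.29 kb from these sites, in that order. All 19 genes had a site ranking highest at day 4 and 3 of them (15.8%) also had a site ranking highest at day 12. Of the 3167 genes with a site, 71.2% had a site of the first kind and 32.0% of the other. A gene with more sites has more chances of either kind. The 19 genes held 35 sites, while 2555 of the 3167 had 1 each, so these shares are not like for like.

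The list for actin and adhesion, the machinery of leukocyte movement and phagocytosis, had sites at 22 of 34 genes (64.7%, 46.5 to 80.3), against 19.3% by length. The sites also called in Day 12- 12 lay near 21 of the 34, and 12 genes had both kinds. Dock2, a Rac activator of leukocytes, had 5 sites, 4 of them inside the gene, with day 4 scores of 50.2 to 63.6, and another 5.88 kb outside with 17.6. Wipf1, a partner of the WASP actin regulator, had 4 inside the gene, at 20.1 to 83.8 on the same scale. Lcp1, the leukocyte plastin, had 3, of which chr14:75176691-75176725 scored 107, 18.6 and 8.43. For Dock8, mutated in a human immunodeficiency, the site 1.96 kb outside the gene (chr19:24997345-24997387) scored 131.5, 59.5 and 19.5. The 2 sites at Arhgap15, a Rac-inactivating protein, were the most isolated of the list, 74.6 kb and 99.0 kb from the nearest summit of the other lists.

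Sites also lay near genes of the phagocyte NADPH oxidase, the enzyme that makes superoxide. The site at Ncf4, a cytosolic subunit, 5.48 kb outside, scored 181, 92.1 and 41.6. Near Rac2, the Rac protein of the complex, a site scored 39.2, 52.2 and 218, and a Day 12- 12 summit lay 163 bp away. Within the lists the Rac2 site stood at percentiles 80.4, 83.4 and 96.6, so it ranked highest at day 12. The site counted for Ncf1 lay nearer to Gtf2ird2, and the site counted for Cyba lay within Mvd.

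Myeloid surface receptors had a site in 15 of 40 cases (37.5%, 22.7 to 54.2), against 13.8% by length, with 14 of 40 for sites also called in Day 12- 12. Cd44, the hyaluronan receptor, had 4 sites inside the gene, and these were all of its sites called at days 4, 8 and 12. Their scores at days 4, 8 and 12 were 15.6, 19.8 and 13.9 at chr2:102851511-102851521, 152, 37.9 and 13.9 at chr2:102852266-102852278, 53.3, 6.86 and 7.42 at chr2:102876409-102876502, and 49.0, 4.21 and 12.8 at chr2:102877695-102877772. Day 0, Day 12- 4 and Day 12- 8 had no summit in or within 10 kb of Cd44, and Day 12- 12 had 2, at least 23.5 kb from each of the 4 sites. Itgam, which encodes Cd11b, the antigen of the labelled sort, had a site inside the gene (chr7:128068034-128068119; 45.3, 22.0 and 4.07) and another 3.29 kb before its start (chr7:128059307-128059386; 24.0, 13.0 and 22.0). Itgb2, its partner chain, had an intragenic site (chr10:77536920-77537033) with 205, 68.3 and 314, with a Day 12- 12 summit 144 bp away. Itgax, encoding Cd11c, had a site inside the gene at 228, 34.96 and 16.5. Near Cd300a, an inhibitory receptor, the strongest of 3 sites scored 235, 39.3 and 26.5, but lay nearer to Gprc5c and 456 bp from a Day 12- 12 summit. Sites at Csf2rb (the shared receptor chain of IL-3, IL-5 and GM-CSF), Fcgr2b (the inhibitory Fc receptor), C5ar1, Cx3cr1 and Siglece numbered 2 each. A Day 12- 12 summit lay 0.101 kb from a Cx3cr1 site, just beyond the merging distance. Other Day 12- 12 summits lay 0.168 kb from an Fcgr2b site, 0.184 kb from a Csf2rb site and 0.568 kb from the Itgam site before the start.

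**Figure D4:**
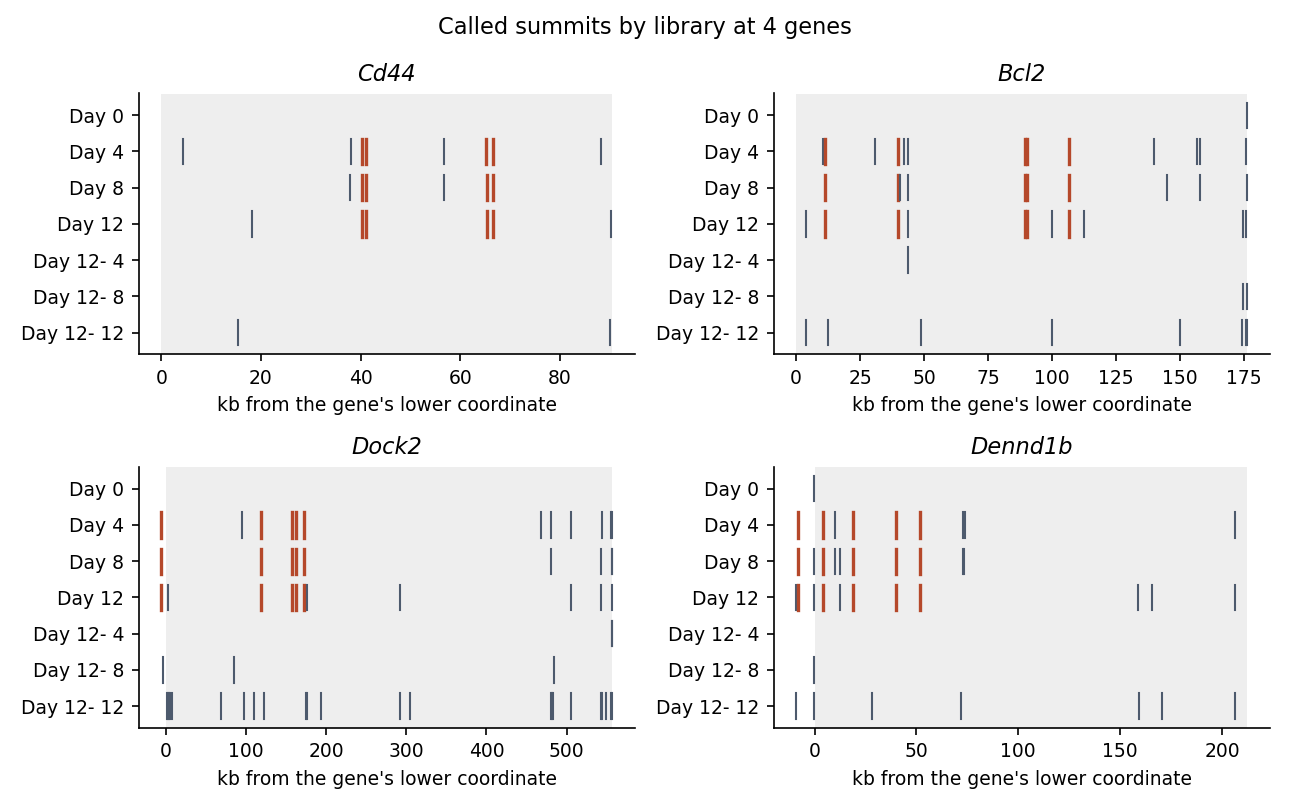
Called summits of the 7 libraries at Cd44, Bcl2, Dock2 and Dennd1b, in kb from the lower coordinate of the gene (grey band), with summits of restoration-only sites in red and all others in dark grey. By the rule that chose the sites, the red marks line up at days 4, 8 and 12 with no summit of the other 4 rows within 100 bp. Day 12- 12 has calls elsewhere in each gene.

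Granule and lysosome proteins had sites in 8 of 24 cases (33.3%, 15.6 to 55.3), against 10.6% by length, and 7 of 24 had a site also called in Day 12- 12. Ctsd, encoding cathepsin D, had 3 sites, 2.57, 5.52 and 6.58 kb before its start, of which chr7:142390386-142390409 scored 212, 53.3 and 31.3, with a Day 12- 12 summit 138 bp away. Lyz1 and Lyz2, the paired lysozyme genes, shared a site inside Lyz1 (chr10:117288393-117288463) with 141, 69.0 and 11.6, 6.01 kb from the nearest other summit. As near-identical copies they can share reads. Mmp8 (neutrophil collagenase) had a site 6.32 kb before its start at 48.8, 22.1 and 3.60, the last at the 6.70th percentile. Day 0 and the 3 libraries titled knockdown had no summit in the gene or within 10 kb of it. Beyond that window, a Day 12- 12 summit lay 5.97 kb from the site.

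Myeloid transcription factors had sites in 10 of 34 cases (29.4%, 15.1 to 47.5), against 11.5% by length, and 14 of 34 had a site also called in Day 12- 12. Near Cebpd, a C/EBP gene of myeloid differentiation, the site 0.613 kb outside the gene (chr16:15890138-15890179) scored 196, 63.3 and 28.7, and another 1.22 kb outside 28.1, 27.2 and 37.4; both lie within the neighbouring gene Spidr. Runx1, a haematopoietic regulator mutated in leukaemia, had 2 intragenic sites, with chr16:92801046-92801081 at 228, 36.5 and 9.17. Rara, a retinoic acid receptor, had a site with scores of 60.4, 71.4 and 163. Within the lists it stood at percentiles 86.8, 88.4 and 95.1, so it ranked highest at day 12. Among inflammation genes 7 of 30 had a site (23.3%, 9.93 to 42.3), against 11.4% by length and 12 of 30 for sites also called in Day 12- 12. Nlrp3, the inflammasome sensor, had 2 sites at alternative starts, with 66.7, 9.04 and 36.2 and with 124, 46.3 and 30.6. Tnf had a site inside the gene at 72.8, 15.1 and 8.43.

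In the list of stem cell and leukaemia-associated genes, 9 of 30 had a site (30%, 14.7 to 49.4), where 19.6% would be the share by length. The interval includes that share, and sites also called in Day 12- 12 lay near 9 of the 30 as well. The genes with most sites in this list are long, such as Bcl2 at 176 kb and Etv6 at 234 kb. Bcl2, the anti-apoptotic gene, had 5 inside the gene, with day 4 scores of 11.3 to 80.6, and no site of the pattern that adds Day 12- 12. Etv6, an ETS repressor, had 5, of which chr6:134052023-134052088 scored 124, 19.8 and 40.6. Cdk6 had 4, of which chr5:3461600-3461687 scored 70.3, 16.1 and 100.9. Fli1 and Erg, ETS factors of haematopoiesis, had 3 each, with the strongest in Fli1 (chr9:32531146-32531178) at 203, 24.7 and 33.4.

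The lists for other lineages and general functions had intervals that included the share by length. Restoration-only sites lay near 3 of 16 B-lymphoid genes (Fcer2a, Cd22 and Cd79b), 2 of 16 T-lymphoid, 3 of 16 erythroid and megakaryocytic, 1 of 12 mast cell and basophil (Mitf, at 166, 24.7 and 23.9), 5 of 26 cell cycle, 4 of 20 housekeeping and 1 of 24 non-haematopoietic genes. The site counted for Fcer2a lay nearer to Fcor, and that for Cd22 nearer to Ffar1. A Day 12- 12 summit lay 0.134 kb from the Cd79b site. Sites in or near a gene need not act on it, and the lists were chosen with earlier results of these data known.

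**Figure D5:**
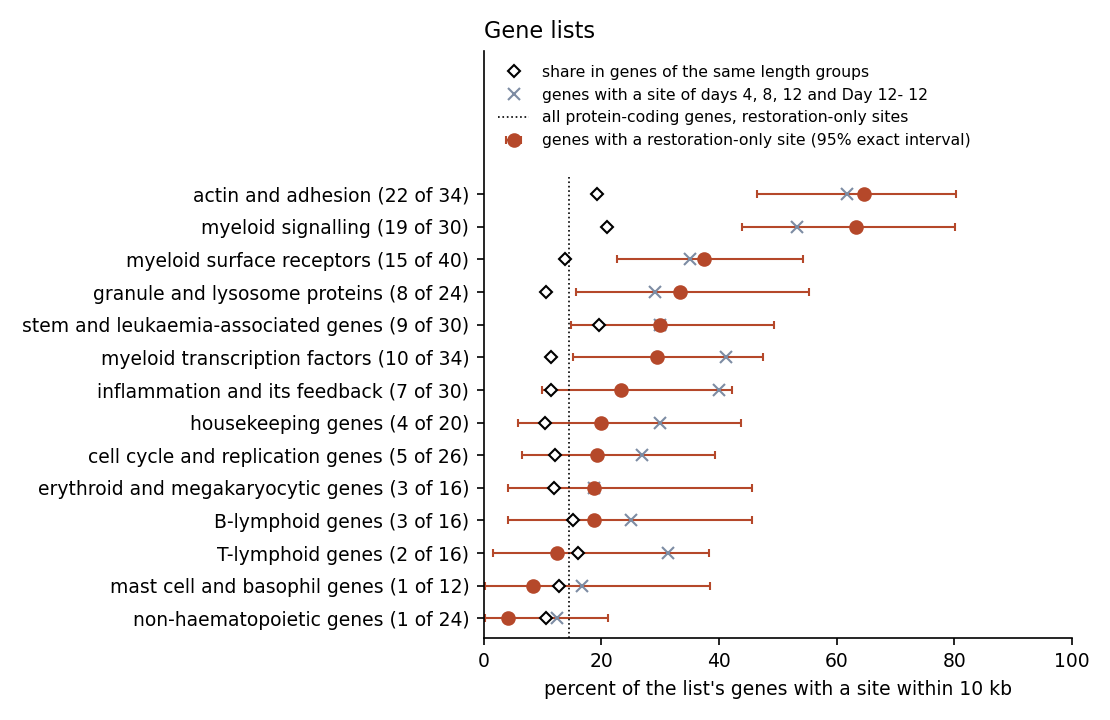
Percent of each gene list with a restoration-only site in the gene or within 10 kb (red points, 95% exact intervals), with the share in genes of the same length groups (open diamonds), the share with a site of the pattern that adds Day 12- 12 (crosses) and the 14.5% of all genes (dotted line). The intervals of the myeloid signalling, actin and adhesion, surface receptor, granule and myeloid transcription factor lists lie above the diamond. The diamonds and the line refer to restoration-only sites and are no baseline for the crosses.

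Among 1005 miRNA hairpins, 31 had a restoration-only site within 5 kb and 10 within 1 kb. No share for other call patterns was set beside these counts. Overlapping hairpins with the same site, such as Mir142 and Mir142b, were counted separately. Mature sequences of 3 are shown, chosen after their positions were seen because they are abundant in myeloid cells, with the seed (bases 2 to 8) in capitals and sequences from RefSeq.
miR-223-3p: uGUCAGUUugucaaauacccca
miR-142a-3p: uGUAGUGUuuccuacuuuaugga
miR-21a-5p: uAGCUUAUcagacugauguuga

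The 3 seeds differ. Mir223, a granulocyte miRNA gene, lies at chrX:96242817-96242926 on the plus strand, and its site (chrX:96242668-96242688) was 139 bp upstream, scored 29.95, 5.94 and 6.45 at days 4, 8 and 12 and stood 29.8 kb from the nearest summit of the other lists. The site near Mir142, a miRNA gene expressed across blood cells, was 2122 bp upstream (chr11:87754721-87754764) and scored 14.5, 10.8 and 37.7, with a Day 12- 12 summit 673 bp away. For Mir21a the site was 3063 bp upstream (chr11:86587210-86587233) and scored 44.2, 20.6 and 4.52. Mir223 and Mir21a thus had their highest rank at day 4 and Mir142 at day 12.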

How the data were processed

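PU.1 ChIP-seq was analysed from 7 deposited lists of peak summits, 1 library per time point. Per the submitters' processing notes, the authors used MACS2 and mm10. The deposited scores were taken to be −log10 q-values, because the lowest value in any list, 1.30104, sits just above 1.30103, the −log10 of MACS2's usual limit of 0.05. The MACS2 version, aligner, control, read filters, pooling and depth (not given in the sources used here) set how many peaks each list holds.

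Summits were merged by single linkage within 100 bp in Python 3.11.15 (numpy 2.4.6, pandas 2.3.3, scipy 1.17.1; figures with matplotlib 3.10.9). A site's coordinates run from its first to its last summit. Scores were ranked within each list. Shares carry exact (Clopper-Pearson) 95% intervals, and differences Newcombe intervals. Both treat sites, genes or windows as independent and cover counting error only.

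Genes were the 21887 protein-coding genes of a RefSeq table for GRCm38.p6. Gene ends were used because that table gives no strand. Start distances and promoter sequences came from a RefSeq promoter table of the same build with 21263 windows of 17492 genes, and sites on chromosomes with no start there were left out of the start distance (4253 sites remained). A gene had a site when 1 lay in its body or within 10 kb. The share by length is the mean, over the genes of a list, of the share of all genes in the same of 10 equal groups by gene length. All 355 genes of 15 lists were matched. Some items, among them the counts of 1 list, are not reported here.

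Named genes were the nearest genes of the 20 sites with the highest lowest-of-3 rank, the 10 genes with most sites, and up to 4 genes a list with most sites. Not all of these are printed. The promoters, the miRNA genes and further genes (among them Syk, Arhgap15, Itgam, Itgax, Mmp8, Erg and Mitf) were chosen after their values were seen, as were the split by list of highest rank and the start distance. The sites and gene lists were chosen with earlier results of these data known. No genome sequence was used, so motifs were searched in promoter windows alone. The merging and counting steps were tested on simulated lists.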

Additional observations from a re-analysis of the deposited data

How the results depend on the processing

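No paired analysis was possible because each time point has 1 library. The number of sites (4396), their share near a gene end (7.49%) and the number of genes with a site (3167) were recomputed under alternatives, and the cause of each move was not tested unless the alternative itself sets it. With every list reduced to the length of the shortest they became 167 sites, 8.98% and 169 genes. Requiring no summit of the other lists within 2 kb gave 2422 sites, 3.06% and 1525 genes, and within 500 bp a share of 5.54%. Leaving out Day 12- 12, the longest list, gave 10145 sites, 12.4% and 6494 genes, because sites of the pattern that adds Day 12- 12 then join. Merging within 500 bp gave 5.72%. By definition the share moved to 3.82% within 500 bp of a gene end and 13.3% within 2 kb. Within 1 kb of a listed start it was 4.91%. The genes moved, also by definition, to 1930 for the gene body alone and 6758 with 50 kb on either side. In the 10 settings in which both were computed, the share near gene ends was lower for the restoration-only sites (5.72% to 8.98%) than for the sites also called in Day 12- 12 (13.0% to 19.5%). Unknown depth and single libraries limit every count, and a longer list could remove sites from the set.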

Other observations

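Most restoration-only sites had no other restoration-only site within 10 kb, but no other call pattern or expected count was set beside this. When sites within 10 kb were chained, 3853 stood alone, 247 formed pairs, 15 formed groups of 3, and 1 group of 4 spanned 4.32 kb at Trmt44 (chr5:35556613-35560992). Groups of 3 lay at Ctsd, Itgam, Dock2, Hdac4, Gimap6, Plxnd1, Tgfa and other genes.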
